A study of Homo sapiens with 9 samples.

Results

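Proteoglycan core proteins are the protein backbones to which cells attach chondroitin, dermatan or heparan sulfate chains, and 35 genes of this kind, with the hyaluronan-binding link proteins that hold some of them in place, were examined in glioblastoma xenografts. The genes were chosen by symbol. Of the 35 symbols, 34 were among the 18364 genes of the deposited table, and OGN was not analysed here. RNA had been sequenced from 9 tumours that grew in the brains of nude mice after intracranial injection of LN229, an established human glioblastoma cell line, and that were taken at the terminal stage. In 6 tumours the cells were LN229-4SA with the genotype TAZ-4SA, which denotes an altered TAZ, a co-activator of transcription at the end of the Hippo pathway, and in 3 tumours they were LN229-EV, the vector control. Each genotype is represented by 1 line of cells, and nude mice lack T cells but keep other immune cells. The comparison addressed what TAZ activation changes in these tumours. The labels do not tie tumours to animals, and each p-value therefore reflects only the spread among these libraries, which may be technical.

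In the brain, the lecticans bind hyaluronan at one end and tenascins at the other, and form a loose matrix and the perineuronal nets around neurons. Small leucine-rich proteoglycans bind collagen fibrils and growth factors and mark connective tissue more than brain. Syndecans span the membrane, glypicans are held to it by a lipid anchor, and perlecan and agrin lie in basement membranes; these families carry mainly heparan sulfate and present growth factors to their receptors.

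Levels are given in CPM, the reads of a gene scaled to library size. WWTR1, which encodes TAZ, was at 331 ± 74.6 CPM in TAZ-4SA (SD, n = 6) and at 120 ± 3.17 CPM in EV (SD, n = 3). Recovered reads lay between 3144861 and 31468135 per TAZ-4SA tumour and between 17314672 and 21576264 per EV tumour. The TAZ-4SA libraries stood apart in detection, with 2990 to 7365 genes at 0 reads against 505 to 622 in EV. Of genes whose level was 10 to 20 CPM in the remaining tumours of a group, 27.9%, 21.4% and 18.6% were at 0 reads in TAZ-4SA tumours 2, 3 and 4, and 0.8% to 6.0% in tumours 1, 5 and 6. The share was 0 in each EV tumour, so 0 reads in single TAZ-4SA tumours is not the same as absence. Glioblastoma and glial markers summed to 2217 to 3479 CPM in TAZ-4SA and 3264 to 3654 CPM in EV, but the markers in these sums moved apart. In EV (n = 3), NES averaged 1324 ± 35.1, S100B 208 ± 43.4 and EGFR 10.4 ± 2.15 CPM (SD). The TAZ-4SA means (n = 6) were 158 ± 60.5, 2.95 ± 4.43 and 375 ± 89.3 CPM, all called, whereas VIM, GFAP, OLIG2 and SOX2 were not called. Neuron markers reached 820 and 1291 CPM in TAZ-4SA tumours 5 and 6 and lay between 29.7 and 200 CPM in the other 7 tumours. In these bulk samples, fewer cells of a type and less RNA per cell cannot be told apart. The injected cells were human and host cells are mouse cells. Whether mouse reads were separated is not given in the sources used here. Neuron, glial, vessel and blood cell markers under human symbols therefore do not count human cells of those types. Whether their reads came from the injected cells or from the host was not tested.

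The regulatory sequence that can be set beside the changes is the promoter. Of the 35 members, 26 had a promoter window of 300 bases in RefSeq (GRCh38.p14). Windows were searched on both strands for GGAATG, the core that TEAD partners of TAZ bind, for TGANTCA, an AP-1 site, and for ACAAAG, a core bound by SOX and TCF factors; these motifs do not overlap in the members. The TEAD letters stood in 1 of 26 members' windows against 14.0% of all 27305 windows, the AP-1 letters in 0 of 26 against 7.8%, and the SOX letters in 5 of 26 against 16.0%. The 5 were CSPG4, HAPLN1, HSPG2, PODNL1 and SDC1. The 250 bases before the RefSeq start used for the window are printed 5′ to 3′ in the gene's direction for 3 members whose levels changed. PRELP (chr1:203475556-203475805, + strand) was shown because it alone held the TEAD letters, CSPG4 (chr15:75712849-75713098, − strand) because it was the one member that fell and held the SOX letters, and SDC4 (chr20:45348425-45348674, − strand) because it was the one member that rose and had a window. Capitals mark matches on either strand.
PRELP: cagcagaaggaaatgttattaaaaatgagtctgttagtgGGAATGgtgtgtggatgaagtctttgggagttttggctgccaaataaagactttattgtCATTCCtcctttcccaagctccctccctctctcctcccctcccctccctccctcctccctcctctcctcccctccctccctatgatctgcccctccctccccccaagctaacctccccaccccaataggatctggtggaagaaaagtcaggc
CSPG4: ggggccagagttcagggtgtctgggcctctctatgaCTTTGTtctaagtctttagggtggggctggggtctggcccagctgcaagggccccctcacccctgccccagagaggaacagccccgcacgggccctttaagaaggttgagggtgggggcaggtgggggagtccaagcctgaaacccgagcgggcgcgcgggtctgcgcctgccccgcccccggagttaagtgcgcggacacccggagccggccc
SDC4: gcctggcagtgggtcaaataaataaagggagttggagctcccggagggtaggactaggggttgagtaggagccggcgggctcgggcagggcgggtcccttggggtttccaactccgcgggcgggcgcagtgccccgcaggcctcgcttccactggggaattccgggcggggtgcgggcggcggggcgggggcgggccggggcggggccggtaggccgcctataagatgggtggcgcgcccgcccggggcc
The TEAD letters of PRELP began 211 and 152 bases before the start, on opposite strands, and the SOX letters of CSPG4 began 214 bases before it. The CSPG4 window lies inside the RefSeq gene body, chr15:75674322-75713466, so its start is not the outermost start of that gene. SDC4 had none of the 3 motifs in this window. A match is a string of letters and not a bound site, and no match says only that the letters are not in the window.

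The members did not move as 1 class. After a filter at a mean of 1 CPM over the 9 tumours, 32 members were tested with limma on the deposited log2 values, fitted over 15578 genes with Benjamini-Hochberg adjustment, and called at an adjusted p under 0.05. LUM, SDC4, SPOCK1 and SRGN were higher in TAZ-4SA, which is 4 of 32 members against 9.02% of all genes called higher. ACAN, CSPG4, CSPG5, BGN, FMOD, PRELP, SDC3, GPC3 and GPC4 were lower, which is 9 of 32 against 13.3% of all genes called lower. The median log2 fold change was -1.75 over the members tested and -0.85 over all genes tested. Groups did not overlap for 4 members above and 13 members below EV, against 10.8% and 21.3% of all genes. The 4 non-overlapping members that were not called were BCAN, PTPRZ1, GPC2 and HAPLN3.

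With the 3 TAZ-4SA libraries of poorest detection (tumours 2, 3 and 4) left out, 4 members were called higher and 11 lower. In that fit the median of all genes moved to -0.49, so these counts do not stand against the same background. Quantile normalization moved the median of all genes to -0.05 and that of the members to -0.36, with 4 members called higher and 13 lower. Under that scaling 2042 of all genes were called higher and 1626 lower, against 1405 and 2079 on the deposited scale. ACAN, CSPG4, BGN, LUM, FMOD, SDC3, GPC3, GPC4, SPOCK1 and SRGN kept their call and direction in all 22 alternatives run. The syndecans and the small leucine-rich group each held calls in both directions, as the plot of fold changes shows.

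The TAZ-4SA tumours differed among themselves more than the EV tumours did. The median SD of log2 CPM over the members tested was 1.24 in TAZ-4SA and 0.234 in EV, against 1.5 and 0.274 over all genes tested. The SD was larger in TAZ-4SA for 30 of the 32 members, or 93.8%, against 94.2% of all genes. SDC4 and FMOD were the exceptions.

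**Figure D1:**
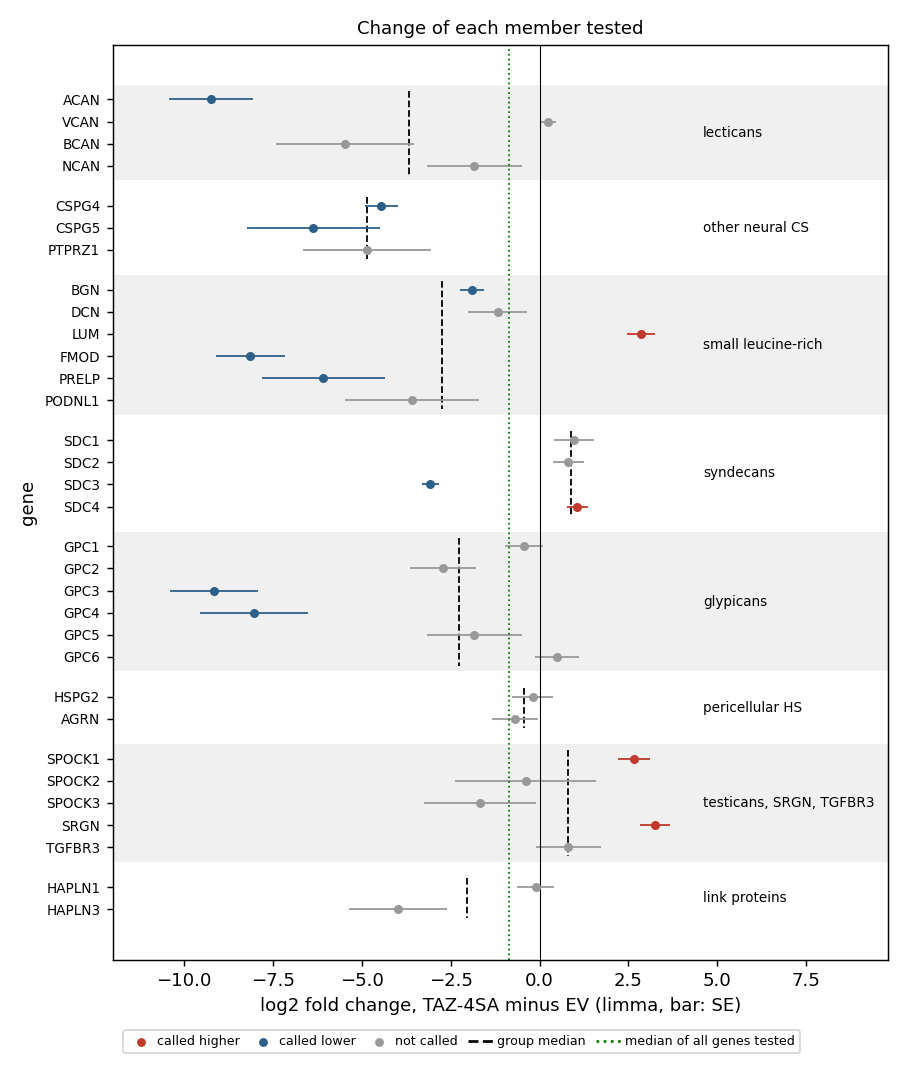
The horizontal axis is the limma log2 fold change, TAZ-4SA (n = 6) minus EV (n = 3), with bars of 1 SE, for the 32 members tested, in rows by group. Red points are called higher (4), blue lower (9) and grey not called (19); dashes mark group medians, which ran from -4.86 for the other neural chondroitin sulfate proteoglycans to 0.89 for the syndecans, and the dotted line marks the median of all genes tested, -0.85.

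Of the 7 neural chondroitin sulfate proteoglycans 3 were called lower, against 13.3% of all genes. In 5 of the 7 every TAZ-4SA tumour lay below every EV tumour, against 21.3% of all genes. Versican was in neither set. Oligodendrocyte markers are given beside the 7 genes, since oligodendrocytes and their progenitors express several of them. Of these markers, MAG was called lower (log2 fold change -6.54 ± 1.53 SE, limma adjusted p = 0.009755) and MBP was not called. MOG and MOBP were below the filter and at 0 reads in all TAZ-4SA tumours. In EV they were also low, at 0.064 to 0.174 CPM for MOG and 0.407 to 0.838 CPM for MOBP. MBP was at 77.9, 50.5 and 136 CPM in EV, at 0 to 43.2 CPM in TAZ-4SA tumours 1 to 4, and at 119 and 59.3 CPM in tumours 5 and 6. SOX10, a regulator of the oligodendrocyte lineage outside that list and chosen after its values were seen, was also lower (-5.33 ± 0.37 SE, limma adjusted p = 2.333e-06). The part of these cells or this lineage in the members' changes was not tested. Of the 4 lecticans 0 were called higher and 1 lower, with a median log2 fold change of -3.66. Aggrecan (ACAN), the large lectican of cartilage and perineuronal nets, was at 102, 111 and 178 CPM in the EV tumours. In TAZ-4SA it had 0 reads in 5 tumours and 1.12 CPM in tumour 5, so the groups were far apart. The 6 TAZ-4SA libraries held 4 ACAN reads in all, each in tumour 5, against 6838 in EV. Mean CPM was 698-fold lower in TAZ-4SA, a ratio that rests on that 1 library. The fitted log2 fold change was -9.25 ± 1.18 (SE; limma adjusted p = 0.0002491), a value that depends on the authors' prior because most TAZ-4SA tumours were at 0.

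Versican (VCAN), the lectican of provisional and tumour matrix, lay between 280 and 385 CPM in TAZ-4SA with a median of 343 CPM. The EV tumours had 280, 275 and 292 CPM. One TAZ-4SA tumour lay within the EV range and the others above it. The means were 335 ± 36.4 CPM in TAZ-4SA (SD, n = 6) and 282 ± 8.58 CPM in EV (SD, n = 3), and the log2 difference of 0.24 ± 0.21 (SE) was not called (limma adjusted p = 0.4333). Per kb of transcript, mean VCAN was 43.2 CPM in EV, above BCAN at 25.1 and ACAN at 17.1, and 51.2 CPM in TAZ-4SA, where BCAN was at 3.02 and ACAN at 0.0245.

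Brevican (BCAN), a lectican made mainly by glia, had 80.4, 68.3 and 78.0 CPM in EV. In TAZ-4SA it was at 0 reads in 2 tumours, at 0.05 CPM in tumour 1, and at 12.5, 23.8 and 18.3 CPM in tumours 3, 5 and 6. All TAZ-4SA values lay below all EV values, but the spread among the TAZ-4SA tumours was wide and the log2 fold change of -5.48 ± 1.94 (SE) missed the threshold (limma adjusted p = 0.06104). BCAN stayed uncalled in 14 of 22 alternatives. It was called in 8, among them without TAZ-4SA tumour 3 (-6.06) and without tumour 5 (-6.25). About 16.9% of BCAN exon bases are shared with other annotated genes, whose reads cannot be separated in a protocol that keeps no strand. The share was 13.7% for PODN, 11.6% for HSPG2, 7.36% for GPC6, 6.79% for CSPG4, 5.44% for AGRN, 3.44% for VCAN and 0 for the other members in the table. Neurocan (NCAN), the lectican of neurons and reactive glia, was low throughout, at 0.56, 0.81 and 1.29 CPM in EV. Its TAZ-4SA reads came from tumour 5 alone, at 7.0 CPM, above every EV tumour. It was not called (log2 fold change -1.84 ± 1.34 SE, limma adjusted p = 0.3365). Without tumour 5 it was called at -2.77, but that fit keeps only TAZ-4SA tumours at 0 reads. It is therefore no support for a fall.

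The other neural chondroitin sulfate proteoglycans are membrane proteins, and 2 of 3 were called lower, against 13.3% of all genes. CSPG4, known as NG2, marks oligodendrocyte progenitors, pericytes and many gliomas. It was at 2087, 1499 and 1523 CPM in EV. TAZ-4SA tumours lay between 40.3 and 173 CPM with a median of 68.4 CPM, all below EV. The log2 fold change was -4.45 ± 0.47 (SE; limma adjusted p = 5.681e-05), from 93953 reads in EV and 6950 in TAZ-4SA. CSPG4 reads were found in all 9 tumours, so the fitted difference does not rest on tumours at 0.

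Neuroglycan C (CSPG5), a growth-promoting transmembrane proteoglycan of neural tissue, was at 115, 113 and 108 CPM in EV. TAZ-4SA tumours 1, 2 and 3 had 0 reads and tumours 4, 5 and 6 had 13.2, 10.9 and 13.8 CPM. The groups did not overlap and the log2 fold change was -6.37 ± 1.87 (SE; limma adjusted p = 0.02883). The call was lost without TAZ-4SA tumour 1 (-5.72, adjusted p = 0.05283) and without EV tumour 1, 2 or 3 (-6.35, -6.36 and -6.39), in the same limma fit. It was also lost without TAZ-4SA tumours 2, 3 and 4, the libraries of poorest detection (-5.32, limma adjusted p = 0.05741). Leaving out another TAZ-4SA tumour moved the value to between -7.04, without tumour 6, and -5.72, without tumours 2 or 3. PTPRZ1, a receptor phosphatase of glia whose secreted form is phosphacan, was at 122, 84.7 and 81.5 CPM in EV. It was at 0 reads in TAZ-4SA tumours 2 and 4 and at 7.90 to 35.8 CPM in the other 4, again without overlap. Its log2 fold change of -4.86 ± 1.79 (SE) was not called (limma adjusted p = 0.07066).

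**Figure D2:**
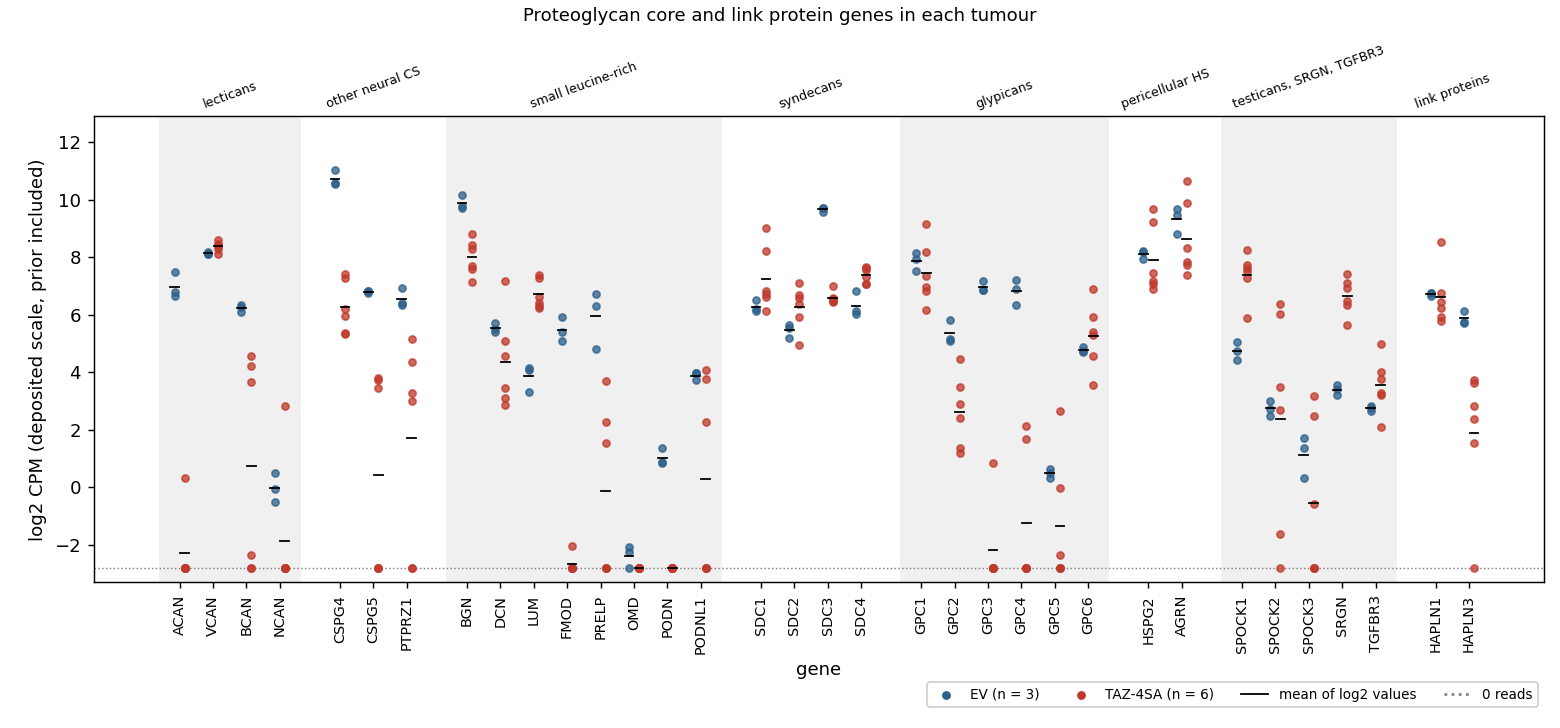
Each point is 1 tumour, with genes on the horizontal axis in their groups and deposited log2 CPM, which includes the authors' prior, on the vertical axis; blue is EV (n = 3), red TAZ-4SA (n = 6), short lines are means of the log2 values, and the dotted line is the value at 0 reads. The VCAN points of both groups sit together at 275 to 385 CPM, whereas ACAN, FMOD and GPC3 have 5 of 6 TAZ-4SA points on the line of 0 reads.

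The link proteins stabilise the bond of lecticans to hyaluronan, and neither was called. HAPLN1, the cartilage and brain link protein, was at 100, 109 and 108 CPM in EV. TAZ-4SA tumours lay between 54.6 and 370 CPM with a median of 81.6 CPM, and tumour 1 was the highest by far. The log2 difference was -0.11 ± 0.51 (SE; limma adjusted p = 0.8938). HAPLN3, the link protein found most widely outside the brain, was at 54.2, 52.7 and 70.5 CPM in EV and at 0 to 13.3 CPM in TAZ-4SA, with a median of 6.06 CPM and no overlap. Its log2 fold change of -3.98 ± 1.37 (SE) missed the threshold (limma adjusted p = 0.05513). HAPLN3 stayed uncalled in 12 of 22 alternatives and was called in 10. Among the 10 were the fits without TAZ-4SA tumour 4, the one at 0 reads (-3.05), and without tumour 2 or 3 (-4.33 and -4.35).

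Link protein genes lie beside lectican genes in the genome, and the neighbours can be compared. ACAN and HAPLN3 are 1.9 kb apart on chromosome 15 (ACAN at chr15:88803436-88875353 and HAPLN3 at chr15:88877294-88895544, GRCh38). Both had every TAZ-4SA tumour below every EV tumour, as had 21.3% of all genes, but only ACAN was called. VCAN and HAPLN1 are 55.5 kb apart on chromosome 5 (chr5:83471744-83582302 and chr5:83637805-83720855), and neither was called. The partners of BCAN and NCAN, HAPLN2 and HAPLN4, are no members and were looked up after the values of the members were seen. HAPLN2, 16.4 kb from BCAN, was lower in TAZ-4SA by a log2 fold change of -6.19 ± 1.64 (SE; limma adjusted p = 0.01843). HAPLN4, 2.5 kb from NCAN, was lower by -5.65 ± 1.26 (SE, limma adjusted p = 0.007357). Its 12 TAZ-4SA reads were all in tumour 5.

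Among the small leucine-rich proteoglycans, lumican rose while biglycan, fibromodulin and prolargin fell. Of 9 symbols 8 were in the table and 6 were tested, with a median log2 fold change of -2.75. Of the 6, 1 was called higher and 3 lower, against 9.02% and 13.3% of all genes. Lumican (LUM), a keratan sulfate proteoglycan that spaces collagen fibrils, was at 9.88, 16.9 and 17.7 CPM in EV. Every TAZ-4SA tumour was above these, from 75.2 to 166 CPM with a median of 92.0 CPM. The means were 110 ± 40.3 CPM (SD, n = 6) and 14.8 ± 4.32 CPM (SD, n = 3), a 7.42-fold ratio, and the log2 fold change was 2.85 ± 0.39 (SE; limma adjusted p = 0.0003884). Summed pericyte and fibroblast markers were at 155 to 508 CPM in TAZ-4SA and 492 to 621 CPM in EV. TAZ-4SA tumour 5, at 508 CPM, alone reached the EV range, and the other TAZ-4SA tumours were at 155 to 349 CPM. Of the 7 markers, KCNJ8 was called lower and 0 were called higher. COL3A1, the largest part of the sum in most tumours, was not called (log2 difference -1.32 ± 0.54 SE, limma adjusted p = 0.09937). The part of these cells in the LUM rise was not tested.

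Decorin (DCN), a dermatan sulfate proteoglycan that binds collagen and TGF-beta, is the neighbour of LUM, 29 kb away on chromosome 12 (chr12:91140484-91182817 and chr12:91102629-91111494) with no protein-coding gene between them. It did not share the rise. DCN was at 45.3, 53.1 and 42.2 CPM in EV and at 7.13 to 144 CPM in TAZ-4SA, with a median of 17.1 CPM. Tumour 2 was above EV and the other 5 TAZ-4SA tumours below it, and DCN was not called (log2 difference -1.18 ± 0.83 SE, limma adjusted p = 0.3173).

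Biglycan (BGN), a collagen-binding relative of decorin, was at 893, 849 and 1153 CPM in EV and at 142 to 452 CPM in TAZ-4SA with a median of 261 CPM. The groups did not overlap. Means were 965 ± 164 CPM (SD, n = 3) and 276 ± 116 CPM (SD, n = 6), and the log2 fold change was -1.90 ± 0.35 (SE; limma adjusted p = 0.002499). Fibromodulin (FMOD), which binds collagen and TGF-beta, was at 42.6, 33.6 and 60.5 CPM in EV, and 1 read was found in all 6 TAZ-4SA libraries together, in tumour 2. Against 2427 EV reads the ratio scaled for depth was 3572, with an exact counting interval (95%, Clopper-Pearson) of 641 to 141200. FMOD was called lower (log2 fold change -8.13 ± 0.96 SE, limma adjusted p = 0.0001429).

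Prolargin (PRELP), which anchors basement membranes to connective tissue and whose promoter is printed above, varied within both groups. It was at 79.6, 106 and 28.0 CPM in EV, and in TAZ-4SA at 0 reads in tumours 1, 5 and 6 and at 4.74, 13 and 2.77 CPM in tumours 2, 3 and 4. There was no overlap, and the log2 fold change of -6.09 ± 1.73 (SE) was called (limma adjusted p = 0.02501). The call was lost without EV tumour 1, 2 or 3 (-5.91, -5.70 and -6.66, with limma adjusted p = 0.1053, 0.1172 and 0.06228) and without TAZ-4SA tumours 5 and 6 together. Without TAZ-4SA tumour 3 the value was -6.86. FMOD and PRELP are neighbours 124.7 kb apart on chromosome 1 (chr1:203340628-203351122 and chr1:203475806-203491352), and both fell.

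The remaining small leucine-rich members were low. PODNL1, podocan-like 1, was at 13.2, 15.5 and 15.5 CPM in EV. It was at 0 reads in 3 TAZ-4SA tumours and at 13.6, 16.8 and 4.76 CPM in tumours 1, 3 and 5, so the groups overlapped and it was not called (log2 difference -3.59 ± 1.87 SE, limma adjusted p = 0.1841). Podocan (PODN) was below the filter, at 1.69, 2.44 and 1.68 CPM in EV and 0 reads in all 6 TAZ-4SA tumours. With 3 reads per library as the floor, its TAZ-4SA level was at least 4.62-fold lower, a bound that covers counting error and not the uneven detection. Osteomodulin (OMD), known from bone, had 3 reads in EV and 0 in TAZ-4SA, so no fold is given.

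Among heparan sulfate carriers, 1 of 12 was called higher and 3 lower, against 9.02% and 13.3% of all genes. Their median log2 fold change was -0.56. It was closer to 0 than the -4.86 of the 7 neural chondroitin sulfate genes and the -2.75 of the small leucine-rich group. These medians describe the groups, and the difference between them was not tested. The groups also differed in detection: 5 of the 7 neural members tested, 3 of the 6 small leucine-rich members and 3 of the 12 heparan sulfate carriers had at least 1 TAZ-4SA tumour at 0 reads. No syndecan, perlecan or agrin value was 0.

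The syndecans split by member. Syndecan-3 (SDC3), the long syndecan of the nervous system, was at 845, 845 and 767 CPM in EV and at 88.2 to 128 CPM in TAZ-4SA, with a median of 93.7 CPM. The TAZ-4SA values were close together and all far below EV. The log2 fold change was -3.07 ± 0.23 (SE; limma adjusted p = 4.424e-06), the smallest adjusted p of the members. Syndecan-4 (SDC4), which works with integrins at focal adhesions, went the other way. It was at 64.7, 69.9 and 114 CPM in EV and at 134 to 205 CPM in TAZ-4SA, with a median of 176 CPM and no overlap.

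The SDC4 means were 171 ± 31.5 CPM in TAZ-4SA (SD, n = 6) and 82.8 ± 26.9 CPM in EV (SD, n = 3), a 2.06-fold ratio. Its log2 fold change of 1.07 ± 0.29 (SE) was called (limma adjusted p = 0.02084), and the call was lost without EV tumour 1 (0.91, adjusted p = 0.134) or EV tumour 2 (0.97, adjusted p = 0.1179). Syndecan-1 (SDC1), the epithelial and plasma cell syndecan, was at 73.1, 92.6 and 70.1 CPM in EV. In TAZ-4SA it ran from 69.4 to 520 CPM with a median of 110 CPM, with tumours 3 and 5 the highest, and it was not called (log2 difference 0.97 ± 0.56 SE, limma adjusted p = 0.2246). Syndecan-2 (SDC2), found in mesenchymal cells, was at 37.0, 49.5 and 47.1 CPM in EV and at 31.0 to 137 CPM in TAZ-4SA. Tumour 3 alone lay below EV. SDC2 was not called (log2 difference 0.81 ± 0.44 SE, limma adjusted p = 0.1998). It stayed uncalled in 20 of 22 alternatives and was called in 2, among them without tumour 3 (1.07).

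Of 6 glypicans, GPC3 and GPC4 were called lower and 0 higher, against 13.3% and 9.02% of all genes. Glypican-3 (GPC3), an oncofetal glypican that modulates Wnt, Hedgehog and IGF signalling, was at 118, 117 and 145 CPM in EV. It was at 0 reads in 5 TAZ-4SA tumours and at 1.68 CPM in tumour 5, the sum being 6 reads against 6778 in EV. Mean CPM was 452-fold lower in TAZ-4SA, a ratio that rests on tumour 5 alone, and the log2 fold change was -9.16 ± 1.23 (SE; limma adjusted p = 0.0003614). Without tumour 5 it was -9.76. Glypican-4 (GPC4), a glypican of neural progenitors and astrocytes, was at 119, 80.65 and 149 CPM in EV, at 0 reads in TAZ-4SA tumours 1 to 4 and at 3.08 and 4.28 CPM in tumours 5 and 6.

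GPC4 was called lower (log2 fold change -8.04 ± 1.53 SE, limma adjusted p = 0.00303), and the value was -8.71 without TAZ-4SA tumour 6. GPC3 and GPC4 are neighbours 120.3 kb apart on chromosome X (chrX:133535745-133985594 and chrX:133300103-133415489), with no protein-coding gene between them. The other glypican pair of neighbours, GPC5 and GPC6, 349.3 kb apart on chromosome 13, held no call. Glypican-6 (GPC6) was at 26.5, 26.3 and 29.5 CPM in EV and at 11.6 to 119 CPM in TAZ-4SA with a median of 41.0 CPM, on both sides of EV. Its log2 difference was 0.49 ± 0.62 (SE; limma adjusted p = 0.5824). Glypican-5 (GPC5) was low in both groups, at 1.26, 1.10 and 1.42 CPM in EV and 0 to 6.11 CPM in TAZ-4SA (log2 difference -1.83 ± 1.34 SE, limma adjusted p = 0.3359).

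Glypican-1 (GPC1), a glypican raised in several tumour types including gliomas, was at 186, 249 and 287 CPM in EV. TAZ-4SA tumours spanned 72.3 to 571 CPM with a median of 145 CPM, and the EV values lay inside that span (log2 difference -0.44 ± 0.54 SE, limma adjusted p = 0.5701). Glypican-2 (GPC2), a glypican of developing neurons, was at 36.1, 34.1 and 56.9 CPM in EV and at 2.14 to 22.2 CPM in TAZ-4SA, with a median of 6.22 CPM. The GPC2 groups did not overlap, yet the log2 fold change of -2.73 ± 0.93 (SE) missed the threshold (limma adjusted p = 0.05223). It was called in 12 of 22 alternatives, among them without TAZ-4SA tumour 2, 3 or 5 (-2.78, -3.10 and -2.90).

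Perlecan (HSPG2) and agrin (AGRN), the basement membrane carriers of heparan sulfate, were not called. HSPG2 was at 246, 295 and 296 CPM in EV. In TAZ-4SA it was at 606 and 814 CPM in tumours 3 and 5 and at 120 to 175 CPM in the other 4, so that EV lay between 2 sets of TAZ-4SA tumours. AGRN was at 455, 823 and 709 CPM in EV, at 954 and 1599 CPM in TAZ-4SA tumours 3 and 5, and at 169 to 320 CPM in the other 4. The log2 differences were -0.20 ± 0.59 (SE; limma adjusted p = 0.8253) for HSPG2 and -0.69 ± 0.65 (SE; limma adjusted p = 0.4592) for AGRN.

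The same 2 tumours led other members. TAZ-4SA tumours 3 and 5 held the highest and second highest TAZ-4SA values of 7 of 32 members: CSPG4, BGN, SDC1, GPC1, GPC2, HSPG2 and AGRN. That is 21.9% of the members and compares with 15.9% of all genes tested. Tumours 5 and 6 led 6 members, BCAN, PTPRZ1, GPC4, GPC5, SPOCK2 and SPOCK3, or 18.8% against 8.62% of all genes. Tumours 5 and 6 also had the highest summed neuron markers, 820 and 1291 CPM, and astrocyte markers, 120 and 44.6 CPM, of the TAZ-4SA tumours, where the other 4 had 84.5 to 200 and 0.0719 to 13.5 CPM. Of the oligodendrocyte markers, MBP was highest there too, at 119 and 59.3 CPM against 0 to 43.2 CPM. MAG did not follow in tumour 6. It was at 4.48 CPM in tumour 5, at 3.63 CPM in tumour 3 and at 0 reads in the other TAZ-4SA tumours. MOG and MOBP were at 0 reads in all TAZ-4SA tumours. The part of these cells in the 6 members' levels was not tested. Tumours 5 and 6 had the fewest reads of the 9, 3299325 and 3144861.

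**Figure D3:**
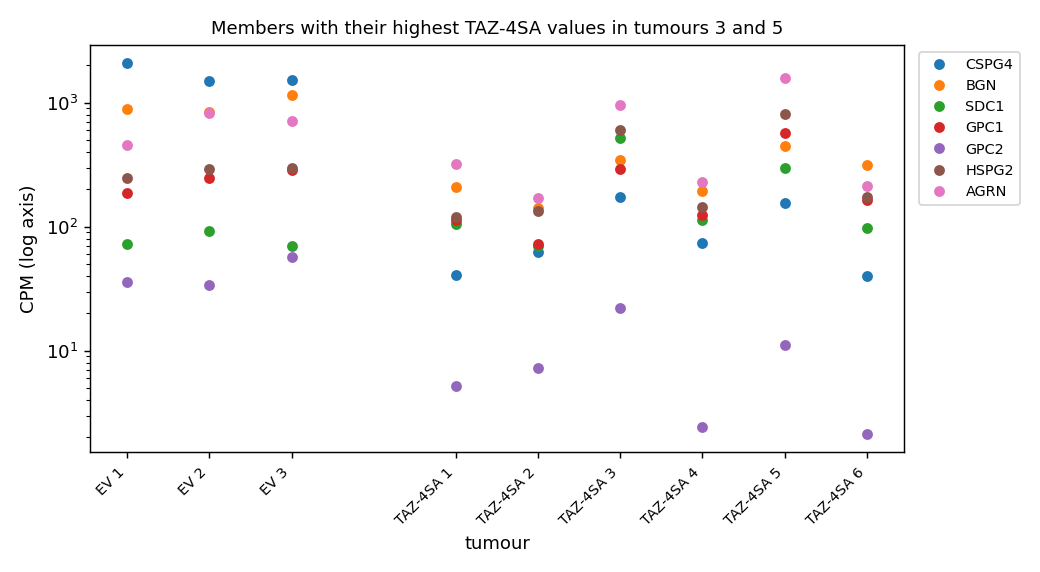
CPM on a log axis of the 7 members whose 2 highest TAZ-4SA values were in tumours 3 and 5, for each of the 3 EV and 6 TAZ-4SA tumours; each point is 1 library and each colour 1 gene. AGRN reaches 954 and 1599 CPM in those tumours and stays at 169 to 320 CPM in the other 4, and CSPG4 is below its EV values in all 6.

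The last group is mixed: testicans are secreted neural proteoglycans, serglycin packs secretory granules, and betaglycan presents TGF-beta. It held 2 of the 4 members called higher and 0 called lower, of 5 tested, against 9.02% and 13.3% of all genes. The group's median log2 fold change was 0.81. Testican-1 (SPOCK1) was at 26.8, 21.4 and 32.9 CPM in EV and at 59.5 to 303 CPM in TAZ-4SA, with a median of 193 CPM. All TAZ-4SA values were above EV, with tumour 2 the lowest. Means were 186 ± 79.3 CPM (SD, n = 6) and 27.0 ± 5.75 CPM (SD, n = 3), a 6.89-fold ratio, and the log2 fold change was 2.65 ± 0.45 (SE; limma adjusted p = 0.001549).

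Serglycin (SRGN), the intracellular proteoglycan of blood cells and of many aggressive tumours, was at 11.6, 10.7 and 9.16 CPM in EV. TAZ-4SA tumours lay between 49.5 and 173 CPM with a median of 105 CPM, all above EV. The means of 109 ± 44.7 CPM (SD, n = 6) and 10.5 ± 1.22 CPM (SD, n = 3) gave a 10.4-fold ratio, and the log2 fold change was 3.26 ± 0.42 (SE; limma adjusted p = 0.0002667). Because SRGN is made by blood cells, macrophage markers are given beside it. Of 8 listed, 5 were in the table, and their sum was 32.9 to 142 CPM in TAZ-4SA and 13.7 to 24.1 CPM in EV. Most of it was CD68, a lysosomal protein, which rose (log2 fold change 2.33 ± 0.47 SE, limma adjusted p = 0.004116). The others did not share that call: PTPRC and TYROBP were at 0 reads in 5 of 6 TAZ-4SA tumours, P2RY12 was at 0 in all 6, and CSF1R was not called (0.66 ± 1.70 SE, limma adjusted p = 0.7971). SRGN was highest in TAZ-4SA tumour 4, 173 CPM, where that sum was the lowest of the TAZ-4SA tumours, 32.9 CPM. In tumour 1, where the sum was the highest, 142 CPM, SRGN was at 140 CPM. The part of blood cells in the SRGN rise was not tested.

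The other testicans and betaglycan were not called. Testican-2 (SPOCK2) was at 6.56, 5.52 and 7.93 CPM in EV. It ran from 0 reads to 83.4 CPM in TAZ-4SA, with 64.7 and 83.4 CPM in tumours 5 and 6 and 0 to 11 CPM in the other 4. Its log2 difference of -0.39 ± 1.99 (SE; limma adjusted p = 0.9011) and its ratio of means, 4.14-fold higher in TAZ-4SA, differ in sign, since 1 tumour was at 0 reads and another at 0.18 CPM. Testican-3 (SPOCK3) was at 3.14, 1.10 and 2.45 CPM in EV and at 0 to 8.96 CPM in TAZ-4SA (log2 difference -1.68 ± 1.57 SE, limma adjusted p = 0.4561). Betaglycan (TGFBR3) was at 6.18, 6.98 and 6.58 CPM in EV and at 4.11 to 31.7 CPM in TAZ-4SA, where 5 of 6 tumours lay above EV (log2 difference 0.81 ± 0.91 SE, limma adjusted p = 0.5366).

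The make-up of the pool of core protein transcripts was compared per length, as CPM per kb of transcript, using the median length of a gene's protein-coding transcripts. BGN led in all 3 EV tumours with 24.3% to 29.7% of the pool. The next places were taken by CSPG4 and SDC3 in each EV tumour, with CSPG4 ahead in tumour 1 and SDC3 ahead in tumours 2 and 3; by longest transcripts CSPG4 was ahead in all 3. No member led in all TAZ-4SA tumours: SRGN was first in tumours 1 and 4, SDC1 in tumour 3, AGRN in tumour 5 and BGN in tumour 6. In tumour 2 the leader was DCN, or SRGN where each gene's longest transcript was used, and the other leaders were the same under both lengths. The 7 neural chondroitin sulfate genes made up 20.2% to 26.8% of the pool in EV and 6.50% to 10.3% in TAZ-4SA.

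SRGN alone went from 0.469% to 0.657% of the pool in EV to 3.45% to 19.5% in TAZ-4SA, and testicans, serglycin and betaglycan together from 1.17% to 1.35% in EV to 9.02% to 24.6% in TAZ-4SA. Heparan sulfate carriers held 36.2% to 42.0% in EV. They held 36.9% to 42.4% in TAZ-4SA tumours 1, 2, 4 and 6 and 57.1% and 63.8% in tumours 3 and 5, where perlecan, agrin and syndecan-1 or glypican-1 were high. The pool itself summed to 1455 to 1615 CPM per kb in EV and 724 to 1190 in TAZ-4SA. These shares describe the tumours, since a share falls when another rises.

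**Figure D4:**
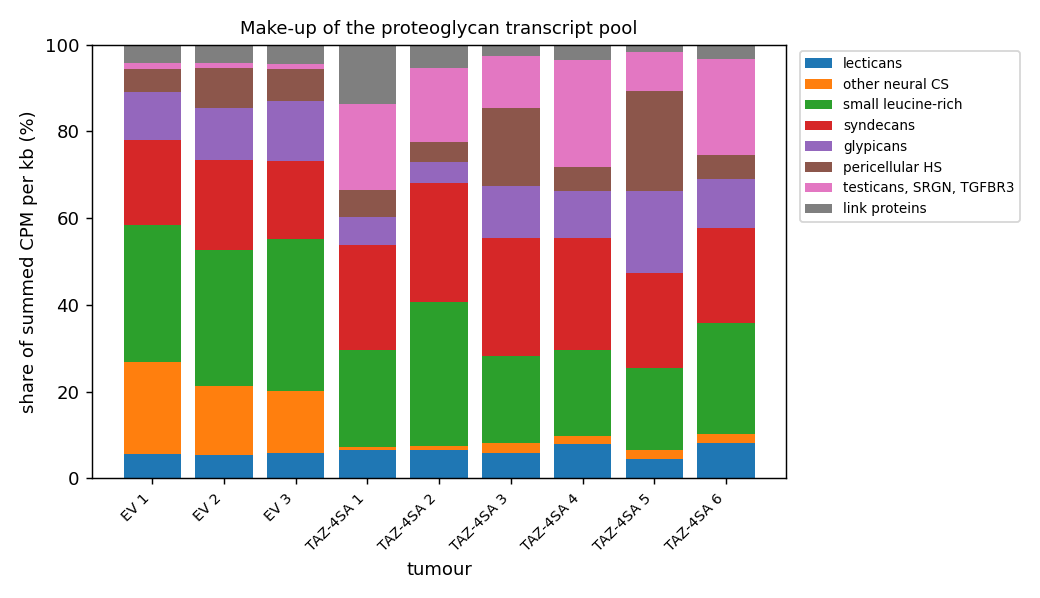
Stacked bars give each group's share (%) of the summed CPM per kb of the 34 members in the table, for each EV and TAZ-4SA tumour, with median transcript lengths. The orange segment, CSPG4, CSPG5 and PTPRZ1, is 14.3% to 21.1% in EV and 0.75% to 2.31% in TAZ-4SA, and the blue lectican segment, mostly VCAN in TAZ-4SA, is 4.36% to 8.19% in TAZ-4SA and 5.45% to 5.82% in EV.

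Core proteins need their chains, so the genes that build, sulfate and cut glycosaminoglycans were counted from 6 lists. Of 69 genes tested, 7 were called higher and 13 lower, 10.1% and 18.8%, against 9.02% and 13.3% of all genes, and the median log2 fold change was -1.37. A share of calls near the background says nothing particular of these lists. Within the list for the linker and the chondroitin chain, 0 of 13 were higher and 2 lower, XYLT1 and B3GAT3. XYLT1, one of the xylosyltransferases that start chains on core proteins, was at 0.606 ± 1.49 CPM in TAZ-4SA (SD, n = 6) and 38.2 ± 18.5 CPM in EV (SD, n = 3), with a log2 fold change of -7.14 ± 1.32 (SE; limma adjusted p = 0.002614). XYLT2, the other xylosyltransferase, was at 52.1 ± 33.8 and 96.4 ± 15.7 CPM and was not called (limma adjusted p = 0.3583). B3GAT3, which finishes the linker, was lower by -1.44 ± 0.38 (SE; limma adjusted p = 0.01763). Of 8 chondroitin-modifying genes 1 was called, the 6-O-sulfotransferase CHST3, at -2.11 ± 0.61 (SE; limma adjusted p = 0.02793).

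In the heparan sulfate list, 2 of 20 genes were higher and 5 lower. EXT1 and EXT2 encode the partners of the polymerase and moved apart. EXT1 was at 206 ± 44.4 CPM in TAZ-4SA (SD, n = 6) against 78.6 ± 7.02 CPM in EV (SD, n = 3), a log2 fold change of 1.37 ± 0.27 (SE; limma adjusted p = 0.003514). EXT2 was at 41.9 ± 14.4 against 112 ± 6.53 CPM, or -1.48 ± 0.35 (SE; limma adjusted p = 0.01021). Of the 4 genes of this list with the smallest p, HS3ST3A1, a 3-O-sulfotransferase, was higher by 3.86 ± 0.67 (SE; limma adjusted p = 0.001912). EXTL1, related to the polymerases, was at 1.64 ± 2.45 CPM in TAZ-4SA against 295 ± 138 CPM in EV. NDST3, an N-sulfotransferase, was at 0.102 ± 0.250 against 10.5 ± 2.45 CPM, and HS3ST1, another 3-O-sulfotransferase, was at 0 reads in all TAZ-4SA tumours and at least 18.8-fold lower than in EV. SULF1, which removes 6-O-sulfates, was the fifth called lower, at -5.30 ± 1.06 (SE; limma adjusted p = 0.004026). EXT1, EXT2 and SULF1, and NOTUM from the list of cleaving enzymes, were chosen after their values were seen, to account for every call.

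The genes that supply sugar nucleotides and sulfate had 1 call in 9, BPNT2, a Golgi phosphatase of sulfation, higher by 1.05 ± 0.34 (SE; limma adjusted p = 0.042). For hyaluronan, to which lecticans bind, 2 of 9 genes were higher and 2 lower. Of the receptors CD44 and HMMR rose. CD44 was at 309 ± 69.9 CPM in TAZ-4SA (SD, n = 6) and 97.6 ± 14.0 CPM in EV (SD, n = 3), and HMMR at 66.0 ± 37.3 and 9.96 ± 2.00 CPM. The hyaluronidase HYAL2 was lower by a log2 fold change of -2.51 ± 0.70 (SE; limma adjusted p = 0.02306), and HYAL1 was at 0 reads in all TAZ-4SA tumours, at least 7.27-fold lower. CEMIP and CEMIP2, which also act in hyaluronan breakdown, were not called, and CEMIP2 was above EV in every TAZ-4SA tumour, at 138 ± 33.9 against 86.9 ± 11.1 CPM.

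Of 10 genes listed with the enzymes that cleave proteoglycans, 2 were higher and 3 lower. NOTUM and HPSE2 are on this list without being such enzymes, as described below. The list median of -4.84 (-4.03 with the genes at 0 in all TAZ-4SA tumours set to their bound) sits beside rises of single genes. ADAMTS5, the main aggrecanase, was at 108 ± 26.8 CPM in TAZ-4SA (SD, n = 6) and 3.52 ± 0.785 CPM in EV (SD, n = 3), a log2 fold change of 4.86 ± 0.39 (SE; limma adjusted p = 7.389e-06). ADAMTS1, which cleaves versican and aggrecan, was at 336 ± 81.6 and 48.6 ± 8.54 CPM, or 2.76 ± 0.28 (SE; limma adjusted p = 4.812e-05). The genes called lower were NOTUM, a lipase that binds glypicans and removes the lipid of Wnt proteins, at -5.99 ± 1.62 (SE; limma adjusted p = 0.02026), HPSE2, an inactive relative of heparanase, at least 19.3-fold lower, and ADAMTS8, at least 13.8-fold lower.

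**Figure D5:**
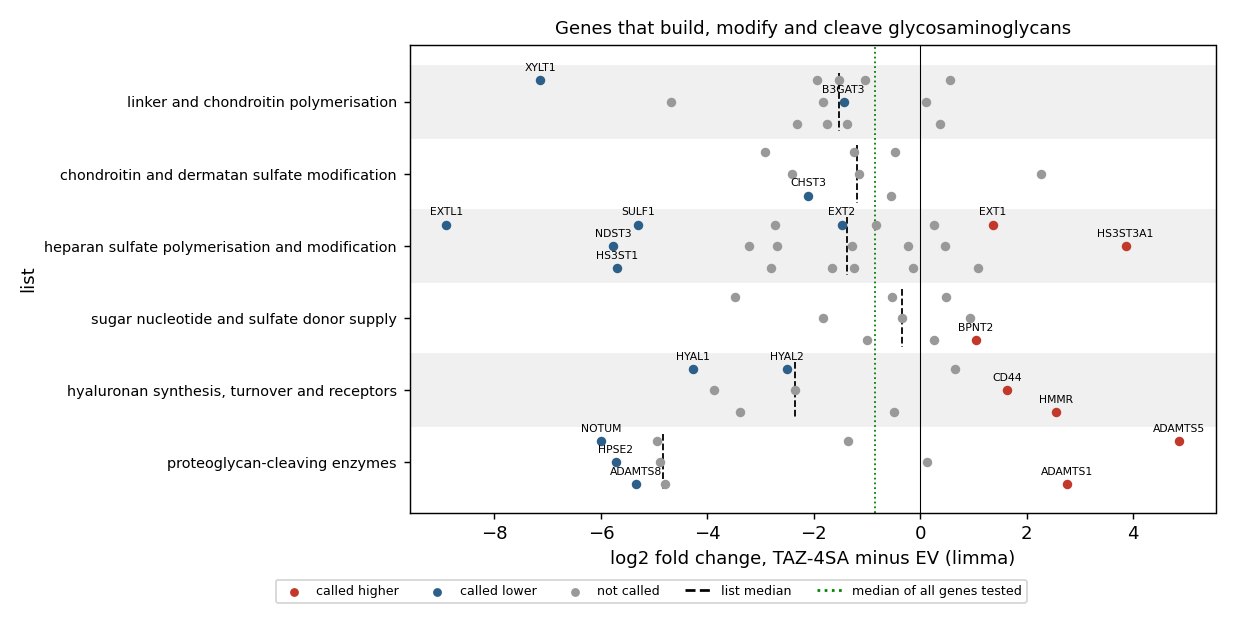
Each point is 1 gene of the 6 lists, placed by its limma log2 fold change, TAZ-4SA minus EV, on the horizontal axis and by list on the vertical axis, with red called higher (7), blue called lower (13) and grey not called (49); dashes mark list medians and the dotted line the median of all genes tested. ADAMTS5 at 4.86 and EXTL1 at -8.90 are the ends of the range.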

How the data were processed

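Total RNA from 9 tumours was made into SMART-Seq mRNA HT and Nextera XT libraries, per the labels' protocols, a chemistry that keeps no strand. HISAT2, edgeR and GRCh38 are named, with no role or version, in the submitters' processing notes. How reads were counted, on which annotation and whether mouse reads were separated is not given in the sources used here. For 18364 genes the authors deposited log2 CPM values, which include a prior of 0.145 CPM. Removing it gave whole reads for 100% of values under 5000 reads, within 0.1 read. On the linear scale the deposited values did not sum to the same total in each tumour (923378 to 1131060). Columns of no sample numbered 0. The floor of 3 reads averaged 0.419 CPM over the TAZ-4SA libraries and 0.169 CPM over the EV libraries. Reads carry no molecular identifiers, so this floor and the intervals express counting error alone.

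limma 3.58.1 (R 4.3.3), with intensity trend and robust empirical Bayes, was fitted to the deposited log2 values of all 9 tumours (15578 genes whose mean reached 1 CPM), with Benjamini-Hochberg adjustment at 0.05. The fit was also tested on simulated counts with the same spread in both groups and even detection. Those counts cannot show how the fit behaves with the wider spread and uneven detection of the TAZ-4SA tumours. Fold changes are TAZ-4SA minus EV on the scale with the prior, which understates changes of low genes, and those of genes with some tumours at 0 reads depend on it. The members and lists were chosen with earlier results of these data known. Named were all members and, of each list, up to 4 called genes with the smallest p; 1 listed marker is not reported here. Lengths and shared exon bases came from GENCODE 29, and neighbours, coordinates and promoters from RefSeq. Alternatives were quantile normalization, median-of-ratios scaling, pseudocounts of 0.1 and 2 CPM, array weights, no robust step, a filter at 10 CPM or none, a replicate block, leaving out each tumour in turn or TAZ-4SA tumours 2, 3 and 4 or 5 and 6, and limma-voom on the whole reads, also weighted by group.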

Additional observations from a re-analysis of the deposited data

Results flagged for a closer look

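In 7 of 32 members (21.9%) 1 of the 6 TAZ-4SA tumours stood apart from the other 5 by Dixon's gap to the nearest value, against 20.1% of all genes tested. Chance flags about 1 in 20 groups, but that rate holds for values without ties. In 4 of the 7 the gap is fixed by the other 5 tumours being tied at 0 reads, which says only where the reads were. Tumour 5 was the one tumour with reads of ACAN (1.12 CPM), NCAN (7.0 CPM) and GPC3 (1.68 CPM), and tumour 2 the one with an FMOD read (0.101 CPM). The other 3 members are 9.38% of those tested, against 14.1% of all genes tested that were apart with no such tie. SDC3 was highest in tumour 2, at 128 CPM, and HAPLN1 in tumour 1, at 370 CPM. HAPLN3 was at 0 in tumour 4, which had the most reads of the 9 libraries.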

How the results depend on the processing

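Over 22 alternatives, 10 of the 13 called members kept their call, and the other 3, CSPG5, PRELP and SDC4, kept their direction. Members called lower, 9 as reported, were 15 with array weights and 14 with limma-voom, with or without weights per group. Lower calls in the 6 lists, 13 as reported, were 7 with a mean of at least 10 CPM, 35 with array weights, 21 without TAZ-4SA tumours 2, 3 and 4, 26 with limma-voom and 32 with weights per group. Over all genes, lower calls were 3384 with no filter, 967 with a mean of at least 10 CPM, 5630 with array weights, 3646 with limma-voom and 4745 with weights per group, and higher calls were 2531 with array weights and 2181 with weights per group. With single tumours left out, higher calls over all genes ranged from 799 to 1685, lower calls from 852 to 2688, lower calls in the lists from 8 to 22, members higher from 3 to 5 and members lower from 7 to 12.

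Members not called changed sign in these cases: SPOCK2 was 0.45 with a pseudocount of 2 CPM, 2.05 with quantile normalization, 0.29 with array weights and 2.28 without TAZ-4SA tumours 2, 3 and 4; NCAN 1.04, GPC5 1.04 and SPOCK3 1.24 with quantile normalization; SPOCK3 0.57 without TAZ-4SA tumours 2, 3 and 4. HAPLN1 was 0.16 with array weights, 0.12 without tumours 2, 3 and 4, 0.20 without tumours 5 and 6, 0.07 with limma-voom and 0.061 with weights per group. With single tumours left out HSPG2 ranged from -0.55 to 0.0046, SPOCK2 from -1.19 to 0.64 and HAPLN1 from -0.49 to 0.06. The cause was not tested. The replicate block gave 604 higher and 2057 lower calls over all genes, 3 members higher and 10 lower, GPC6 at -0.31 and HAPLN1 at 0.35; tumours with the same number did not deviate together (correlations 0.031, 0.0037 and -0.047), so the number pairs nothing. The planned edgeR quasi-likelihood fit was not run, because the deposited unit is log2. Depth limits PODN, OMD, NCAN and GPC5 most, and the uneven detection of the TAZ-4SA libraries touches the 14 members tested that had a TAZ-4SA tumour at 0 reads.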
